A study of Rattus norvegicus with 6 samples.

Results

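The genes described here encode the acid-sensing ion channel subunits Asic1, Asic2, Asic3 and Asic4 and the Piezo channels Piezo1 and Piezo2, 6 genes of the 43350 gene rows in the deposited table. They were chosen by symbol and not by their values. Each symbol was matched to the protein-coding row that carries it. For Piezo1, the symbol with 2 rows, the protein-coding row was used and a short unstranded row inside it was left out. The RNA came from the lumbar dorsal root ganglia (DRG) of male Sprague-Dawley rats on day 11 after surgery, with 3 rats in the chronic constriction injury (CCI) group and 3 in the sham group. In the CCI group loose ligatures were placed around the sciatic nerve of the left thigh. In the sham group it was exposed without ligation according to the methods, although the labels give no treatment. The rats were bought at a few weeks of age, operated on after a period of habituation and taken for RNA only if they behaved in the paw tests as their group was meant to, and ganglia of the operated side from 1 rat made 1 sample according to the methods. The labels speak instead of pooled samples, so each of the 3 samples of a group, called a rat here, may hold RNA of more than 1 animal. Whole ganglia were sequenced, so neurons with and without an axon in the tied nerve, satellite glia, Schwann cells, vessels and immune cells all contributed RNA.

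Acid-sensing channels belong to the degenerin and epithelial sodium channel family (DEG/ENaC) and open to let sodium in when protons accumulate outside the cell, as happens in inflamed or poorly perfused tissue. Asic3 is known as the subunit most characteristic of sensory neurons, Asic1 and Asic2 are shared with central neurons, and Asic4 does not form a proton-gated channel by itself. Piezo channels are very large membrane proteins that open when the membrane is stretched. Piezo2 is the main transducer of light touch and proprioception in DRG neurons, and Piezo1 is best known from endothelium and other non-neuronal cells.

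The 6 libraries held between 75423546 and 87615743 counts, and levels are given as FPKM, the authors' counts scaled to row length and library total. Testing was limited to the 26663 rows that averaged 0.5 FPKM or more. Atf3, a transcription factor induced by nerve injury, had 4094 to 9456 counts in the CCI libraries and 555 to 634 in the sham libraries, and the groups did not overlap. The sum of 6 injury markers was highest in CCI 1, at 542 CPM (counts per library total after scaling), against 353 in CCI 2 and 299.5 in CCI 3. Fibroblast markers were lowest in CCI 1, with 1646 CPM over 5 genes against 2476 to 2797 in the others. Sham 1 held the most muscle RNA, with 387 CPM over 6 skeletal muscle markers against 8.88 to 49.5 in the others. The neuronal markers Avil, Prph, Isl1, Tubb3, Rbfox3, Uchl1, Elavl4 and Snap25 were well above the floor of 3 counts in every library.

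Ordered by their level per length, Piezo2 came first with a mean of 46.9 FPKM over the 6 libraries, followed by Asic3 at 39.3, Asic1 at 17.5, Asic2 at 2.74, Piezo1 at 2.26 and Asic4 at 0.394. Piezo2, Asic3 and Asic1 were thus among the more abundant transcripts of the ganglion. Their mean FPKM lay above that of 94.3%, 93.0% and 82.6% of the 12988 tested protein-coding rows, while Asic2 and Piezo1 exceeded 27.1% and 22.3% of them. Within a library Piezo2 exceeded Asic3 in 6 of 6 libraries, by a ratio of 1.04 to 1.32, but the FPKM ranges of these neighbours overlapped across libraries. Asic3 exceeded Asic1 by a ratio of 2.00 to 2.73 and Asic1 exceeded Asic2 by 5.53 to 7.00, with no overlap of ranges in either pair. In counts, however, Asic1 was above Asic3, at 8047 to 11753 against 6961 to 7694 a library. The order of Asic3 and Asic1 thus rests on the row lengths, given below. Asic2 and Piezo1 could not be ranked, since Asic2 was the higher in 5 of 6 libraries and their ranges overlapped. Piezo1 exceeded Asic4 by a ratio of 4.30 to 9.77.

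The rows differ in how they were built. Coordinates are those of the deposited table, for the rat genome the authors call V101. Asic1 (chromosome 7, 141324681 to 141354937, plus strand) covered 8 transcripts, 5 of them assembled by the authors, with a row length of 7039 bases. Asic3 (chromosome 4, 7288855 to 7293721, minus strand) was the most compact, with 2 transcripts and 2296 bases. Asic2 (chromosome 10, 68248655 to 68517564, minus strand) and Asic4 (chromosome 9, 82647071 to 82668920, plus strand) held 1 annotated transcript each, of 1858 and 2900 bases. Piezo1 (chromosome 19, 55305496 to 55367353, minus strand) also held 1 transcript, of 9003 bases. Piezo2 (chromosome 18, 58301559 to 58728574, minus strand) spanned 427016 bases and joined 7 transcripts into a row of 15262 bases.

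No other row overlapped the Asic rows. The Piezo2 row enclosed Napg on the opposite strand, whose counts came to 4.93% to 6.48% of those of Piezo2, together with 2 unnamed loci at 0.632% to 1.71% and a long non-coding RNA with 0 to 4 counts. The Piezo1 row overlapped Ctu2, on the opposite strand, by 207 bases at its end, where the counts of the whole Ctu2 row came to 17.9% to 30.2% of those of Piezo1, and enclosed the second Piezo1 row, which held 1.39% to 4.41% of its counts. Since the sources do not state whether counting used strand, reads in these stretches are less certain.

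**Figure D1:**
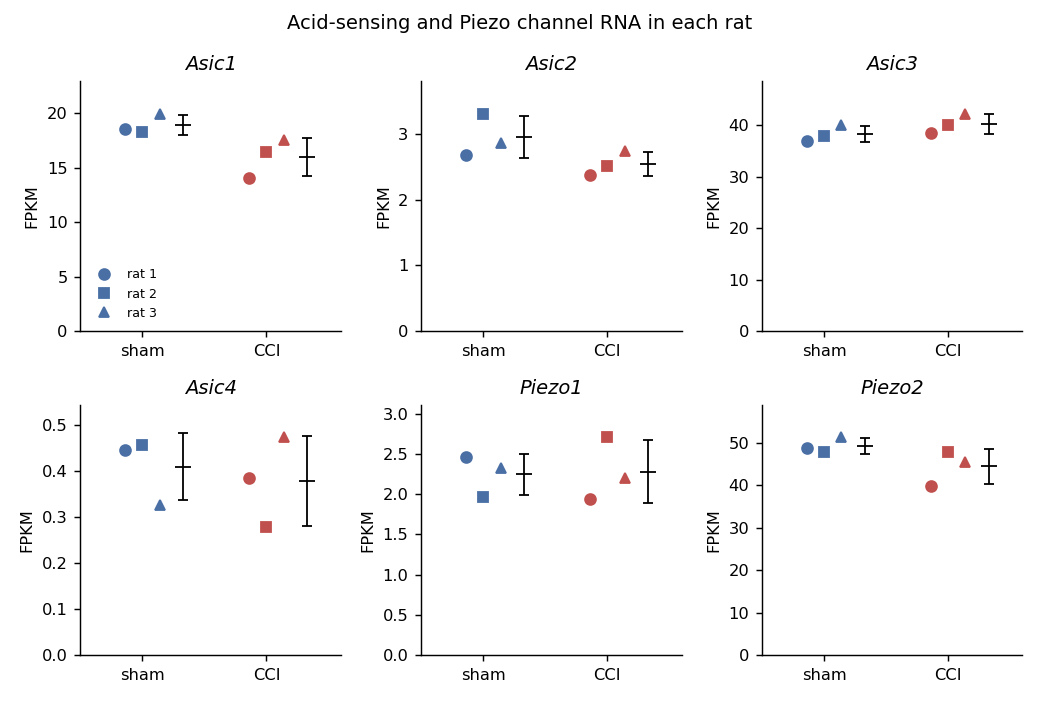
FPKM of the 6 genes in each rat (y axes from 0, one panel a gene), with symbols marking rats 1 to 3 of the sham group (blue) and the CCI group (red), which are different animals, and black bars giving the mean and SD of 3. In Asic1 every CCI rat lies below every sham rat, while the groups overlap in the other 5 panels.

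The comparison of the groups asks whether the RNA of these channels differed in the ganglia 11 days after the injury. No member was called. The limits the study used, an unadjusted p below 0.05 with a log2 fold change beyond 0.58 in either direction, called 0 of the 5 members by edgeR's quasi-likelihood method, against 3.83% of all tested rows. In a fit without the filter they called 0 of 6, against 3.84% of rows. At an adjusted p under 0.05 it was also 0 of 5, against 0.0938% of rows. At an unadjusted p under 0.05 alone, 1 member, Asic1, was below the limit with this test and with DESeq2, and 0 were with limma or edgeR's exact test. This compares with 10.7% of rows with the quasi-likelihood test, and 5.18% in the lower direction. On the CPM scale the groups did not overlap for 2 members, Asic1 and Piezo2, against 17.3% of rows. Both were lower in the CCI group (8.7% of rows) and 0 were higher (8.63% of rows). The median log2 fold change of the 5 members was -0.16, against 0.01 over all rows tested. All 5 had a 95% interval of the log2 fold change that lay within 0.58 of 0 on both sides, as did 47% of all tested rows, so the data bound the difference of these genes more closely than that of many others.

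Asic1, the subunit that also carries proton-gated current in the brain, measured 14.1, 16.4 and 17.5 FPKM in CCI 1, 2 and 3 and 18.5, 18.3 and 19.96 in sham 1, 2 and 3. Every CCI library lay below every sham library, as in 8.7% of all tested rows, and CCI 1 was the lowest. The means were 16.0 ± 1.75 and 18.9 ± 0.905 FPKM (SD, n = 3). In edgeR's quasi-likelihood test the log2 fold change was -0.26 (standard error 0.09), with a 95% interval from -0.47 to -0.04, an unadjusted p of 0.0250 and a Benjamini-Hochberg adjusted p of 0.379. On a linear scale this is a difference of -16.4%, with an interval from -27.9% to -3.02%. In bulk ganglia, fewer cells of a type and less RNA per cell cannot be told apart.

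Asic3, known for the acid response of muscle afferents, measured 38.4, 39.98 and 42.2 FPKM in CCI 1, 2 and 3 and 37.0, 37.9 and 40.1 in sham 1, 2 and 3. The groups overlapped and their means, 40.2 ± 1.90 and 38.3 ± 1.58 FPKM (SD, n = 3), differed by about the spread between rats. Its log2 fold change of 0.05 (standard error 0.06) had a 95% interval from -0.10 to 0.20 in edgeR's quasi-likelihood test (adjusted p = 0.838). On a linear scale the interval reached from -6.39% to 14.9%. Asic3 was also among the steadiest genes between rats, with an SD of log2 CPM within groups of 0.0654, lower than in all but 15.9% of tested protein-coding rows.

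Asic2, a subunit known for its part in mechanically sensitive afferents, measured 2.38, 2.50 and 2.73 FPKM in CCI 1, 2 and 3 and 2.68, 3.30 and 2.85 in sham 1, 2 and 3. CCI 3 reached above sham 1, so the groups overlapped. The means were 2.54 ± 0.181 and 2.95 ± 0.322 FPKM (SD, n = 3), and the log2 fold change of -0.23 (standard error 0.14) was not called by edgeR's quasi-likelihood test (adjusted p = 0.648). With 358 to 492 counts a library, its interval, from -0.576 to 0.11, was wider than those of Asic1 and Asic3.

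The counts of Asic4 were 91, 65 and 103 in CCI 1, 2 and 3 and 113, 106 and 79 in sham 1, 2 and 3, or 0.277 to 0.473 FPKM. It lay under the filter and was fitted only without it. Counting error alone was 9.41% to 12.4% of a library's value, and the groups overlapped. There the log2 fold change was -0.13 with an interval from -0.82 to 0.56 (edgeR's quasi-likelihood test, adjusted p = 0.934), so the interval still held falls of the size the study called.

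Piezo2, the touch and proprioception channel, was the most deeply counted member, with 49437 to 65538 counts a library. It measured 39.9, 48.0 and 45.6 FPKM in CCI 1, 2 and 3 and 48.7, 47.9 and 51.3 in sham 1, 2 and 3. CCI 1 stood lowest, and CCI 2 lay just above sham 2. On the CPM scale, which also uses the scaling factors, Piezo2 had 608, 728 and 689 in CCI 1, 2 and 3 and 741, 736 and 792 in sham 1, 2 and 3. Here the groups did not overlap, so the separation depends on the scaling. The means were 44.5 ± 4.15 and 49.3 ± 1.81 FPKM (SD, n = 3). Its log2 fold change of -0.16 (standard error 0.08) had an interval from -0.35 to 0.02 and was not called by edgeR's quasi-likelihood test (unadjusted p = 0.0762, adjusted p = 0.535). The value was -0.09 without CCI 1, and without CCI 2 it was -0.22 with an unadjusted p of 0.0351 in the same edgeR test.

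Piezo1, the channel through which endothelium senses flow, measured 1.94, 2.71 and 2.20 FPKM in CCI 1, 2 and 3 and 2.46, 1.96 and 2.32 in sham 1, 2 and 3. The highest and the lowest rat were both in the CCI group. The means were 2.28 ± 0.390 and 2.25 ± 0.256 FPKM (SD, n = 3), and the log2 fold change of 0.01 (standard error 0.15) had an interval from -0.34 to 0.36 (edgeR's quasi-likelihood test, adjusted p = 0.993). Its direction turned with single libraries, from -0.13 without CCI 2 to 0.11 without CCI 1. Piezo1 varied more between rats than the others tested, with an SD of log2 CPM within groups of 0.205, above that of 69.7% of tested protein-coding rows.

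**Figure D2:**
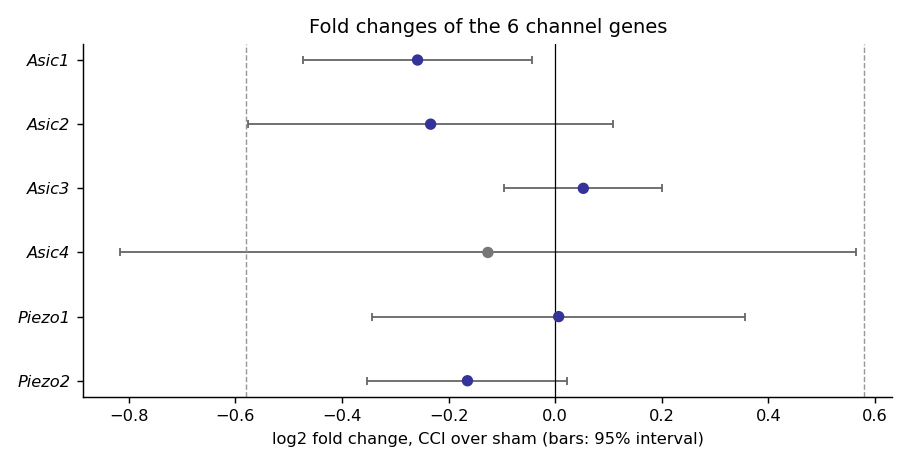
Log2 fold change, CCI over sham (x axis), of the 6 genes with 95% intervals from edgeR's quasi-likelihood test, and dashed lines at 0.58 on either side of 0. The intervals of the 5 tested genes (blue) lie between the dashed lines, and that of Asic4 (grey, fitted without the filter) runs from -0.82 to 0.56.

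Ratios and shares of members within a library do not depend on the library's scaling, but their sum does. The difference in summed Asic level was -1.46 from FPKM and -2.16 from scaled CPM per kilobase. The 4 Asic genes summed to 55.3, 59.2 and 62.9 FPKM in CCI 1, 2 and 3 and to 58.7, 59.9 and 63.2 in sham 1, 2 and 3. The sums overlapped, with means of 59.1 ± 3.83 and 60.6 ± 2.34 (SD, n = 3), and did not differ beyond the spread between rats (two-sided exact permutation test, p = 0.6). The make-up of this sum was less alike. Asic1 made up 25.5%, 27.7% and 27.8% of it in CCI 1, 2 and 3 and 31.6%, 30.5% and 31.6% in sham 1, 2 and 3, and Asic3 made up 67.1% to 69.5% in the CCI group and 63.1% to 63.4% in the sham group. Neither share overlapped between the groups, nor did that of Asic2. Shares of 1 sum are not independent, so a lower share of Asic1 goes with a higher share of Asic3. No test was run on the shares, and how often shares in sums of other genes do not overlap was not computed. The shares restate the fold changes above, of which none was called. As they are made from levels per length, they also depend on the row lengths. Asic2 contributed 4.23% to 4.34% in the CCI group and 4.51% to 5.52% in the sham group, and Asic4 at most 0.762%.

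The ratio of Asic3 to Asic1 was 2.73, 2.44 and 2.41 in CCI 1, 2 and 3 and 2.00, 2.07 and 2.01 in sham 1, 2 and 3. All CCI rats lay above all sham rats, and the gap between the group means, 2.52 ± 0.177 against 2.03 ± 0.0406 (SD, n = 3), was larger than either spread. The mean log2 ratio differed by 0.32, and the two-sided exact permutation test gave p = 0.1, the smallest it can give with 3 rats against 3. This ratio was picked after the fold changes had been seen. Among all 15 pairs of members, 3 had ratios that did not overlap between the groups, namely Asic3 to Asic1, Asic3 to Asic2 and Piezo2 to Asic3. That each involved Asic3 repeats the fold changes above, 0.05 for Asic3 against -0.26, -0.23 and -0.16 for Asic1, Asic2 and Piezo2. Pairs that share a gene are not independent, and the share over pairs of other rows was not computed. Adjusted over the 15 pairs, the exact permutation p of each of the 3 was 0.5, and no pair passed.

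The ratio of Piezo2 to Piezo1 was 20.6, 17.7 and 20.8 in CCI 1, 2 and 3 and 19.8, 24.4 and 22.1 in sham 1, 2 and 3. Sham 1 lay below CCI 1 and CCI 3, so the groups overlapped. The mean log2 ratio differed by -0.17 (two-sided exact permutation test, p = 0.3).

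**Figure D3:**
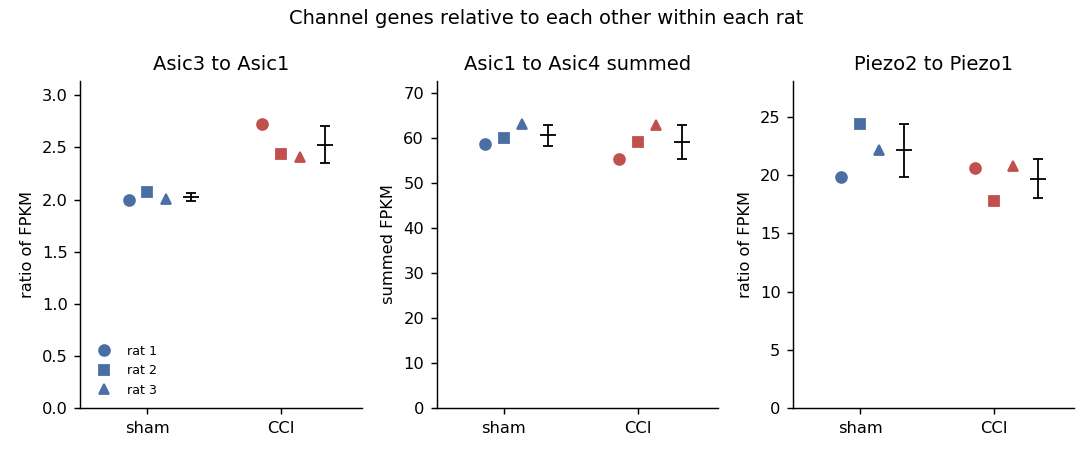
The ratio of Asic3 to Asic1, the sum of Asic1 to Asic4 and the ratio of Piezo2 to Piezo1 in each rat, computed from FPKM (y axes from 0), with symbols and colours for the 3 different rats of each group and black bars for the mean and SD of 3. The ratio of Asic3 to Asic1 is 2.41 to 2.73 in the CCI group and 2.00 to 2.07 in the sham group, and the other panels overlap.

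Cell type markers were read beside these values. Over 7 markers of large neurons, the cells known for Piezo2, the summed level was 4860 to 6576 CPM in the CCI group and 6863 to 8354 in the sham group and did not overlap. Nefh and Nefm were the largest parts of this sum. Nefh did not overlap, but Nefm did, at 1141 to 2534 CPM in the CCI group and 1591 to 3583 in the sham group. Of the 7, Pvalb, a calcium-binding protein of proprioceptors, was called lower by edgeR (log2 fold change -0.69, adjusted p = 0.144), where 1.26% of all tested rows were called lower. By sign 6 of the 7 were lower. The 7 nociceptor markers summed to 2043 to 2320 CPM in the CCI group and 2151 to 2503 in the sham group, with 0 called. The 8 general DRG neuron markers summed to 7133 to 7444 CPM in the CCI group and 6050 to 7116 in the sham group, with 0 called. Satellite glia markers had 0 of 6 called and sums of 2578 to 2669 against 2433 to 2578 CPM, and Schwann cell markers had 0 of 6 called and sums of 6290 to 8667 against 7793 to 8778 CPM. Macrophage markers had 3 of 7 called higher, Cd68, Csf1r and Cx3cr1, against 2.57% of all tested rows, with sums of 86.6 to 127.9 against 64.4 to 85.6 CPM. Skeletal muscle markers had 4 of 6 called lower, Acta1, Ckm, Mylpf and Actn3, with sums of 8.88 to 24.1 CPM in the CCI group and 387, 12.1 and 49.5 CPM in sham 1, 2 and 3, so that sham 2 lay within the CCI range. Fibroblast and erythrocyte markers had 0 called. The sums of general DRG neuron, satellite glia and macrophage markers also did not overlap, and these were higher in the CCI group. By sign, however, 4 of the 8 neuron markers were higher and 4 lower. Tubb3, the largest part of their sum, averaged 2674 CPM in the CCI group and 2162 in the sham group, and Prph 1574 and 1323. The satellite glia sums were barely apart, at 2577.9 CPM in CCI 1 and 2577.8 in sham 2. Of these 6 markers 4 were higher by sign and 2 lower. Of single tested rows 17.3% did not overlap, and the share for sums of other gene sets was not computed. Cldn5, an endothelial marker, had 0 counts in every library. The part of cell make-up in the values of Asic1 and Piezo2 was not tested.

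For Piezo1 the endothelial markers were set beside it by library. Their sum over 6 genes was 87.0, 118.9 and 107.9 CPM in CCI 1, 2 and 3 and 128.1, 100.6 and 106.8 in sham 1, 2 and 3, with 0 of 5 tested called. CCI 1 was lowest in both this sum and Piezo1, and sham 2 was the lowest of its group in both, but the highest library was sham 1 in the sum and CCI 2 in Piezo1. The part of the vessels in the Piezo1 level was not tested.

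Likeness of pattern was measured as the root mean square difference in log2 CPM, after centring each gene on its own mean, over the 6 libraries and 11606 protein-coding rows. The genes nearest to Asic1 were Ccdc102a (0.0262), Tdrd7 (0.0326) and Pygb (0.0342), where the deviation of Asic1 from its own mean was 0.165. Nearest to Asic2 were F2r (0.0263), Lysmd2 (0.0395) and Uspl1 (0.0413), and nearest to Asic3 were Slc38a7 (0.0149), Ggt7 (0.0224) and Zfp142 (0.0224). Piezo1 lay nearest to Adgrl4 (0.0385), Heg1 (0.0389) and Magi1 (0.0476), and Piezo2 to Macrod1 (0.0134), Fpgt (0.0202) and Lsm1 (0.0284). These are descriptions over 6 libraries that share their scaling. No member was among the nearest of another.

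The annotation in the table gave all 6 members the terms for membrane and integral component of membrane. Sodium channel activity was given to the 4 Asic genes and response to acidic pH to Asic1, Asic2 and Asic3. Mechanosensitive ion channel activity was given to Piezo1 and Piezo2, and response to mechanical stimulus to Asic2 and Asic3. The pathway of inflammatory mediator regulation of TRP channels held all 4 Asic genes.

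Genes that work with these channels were read from 5 lists with 43 genes in all, of which 32 passed the filter. The 32 had a median log2 fold change of -0.02. By edgeR's quasi-likelihood method 0 of them were called at the study's limits, against 3.83% of all tested rows. Nor was any called at an adjusted p under 0.05, against 0.0938% of all tested rows. At an unadjusted p under 0.05 alone it was 8 of 32 (25%), 2 higher and 6 lower, against 10.7% of all tested rows. On the CPM scale S100a10, Kcnk2 and Tmem63a, the last named after its value was seen, were higher in every CCI library than in every sham library. Slc9a3r1, Patj, Tmem150c, Atp2a2, Tmem63b, Kcnk4 and Trpv1 were lower in every CCI library. Of all tested rows 17.3% did not overlap, 8.63% higher and 8.7% lower. DESeq2 called 0 of the 32 at the study's limits and 3 at an adjusted p under 0.05. By that second limit DESeq2 called 751 rows of the whole series, where the quasi-likelihood test called 25. Limma and edgeR's exact test called 0 of the 32 by either limit.

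Among 12 partners of the acid-sensing channels, 11 were tested. The most abundant were S100a10, an adaptor that helps channels reach the membrane, at 202 FPKM over the 6 libraries, Slc9a3r1, a scaffold protein, at 28.7, and Stoml1, a stomatin relative, at 19.3. Their log2 fold changes were 0.13, -0.12 and 0.00, and none was called. Chosen after its value was seen, Patj, a scaffold protein with many PDZ domains that can bind Asic3, measured 10.8 ± 0.298 FPKM in the CCI group and 14.1 ± 0.254 in the sham group (SD, n = 3). With counts of 7963, 8058 and 7169 against 11193, 10468 and 10559, its groups did not overlap, but its log2 fold change of -0.41 (standard error 0.05) was under the fold limit and the adjusted p was 0.0714 in edgeR's quasi-likelihood test. DESeq2 gave an adjusted p of 3.23e-06 for Patj and edgeR on protein-coding rows alone gave 0.0349. At an adjusted p under 0.05 these fits called 751 and 71 rows in all, against 25 in the main fit. No other alternative called Patj at that limit. Stom, the stomatin that restrains acid-sensing channels, had a log2 fold change of 0.51 and Lin7b, a PDZ adaptor, one of -0.51, with adjusted p of 0.385 and 0.437 in edgeR's quasi-likelihood test. Stom and Lin7b were named after their values were seen, and were called only in fits that left out a single library.

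Of 8 Piezo partners, 6 were tested and 5 were lower by sign, with a median log2 fold change of -0.12 and 0 called. Anxa6, a calcium-dependent membrane-binding protein, was at 220.2 FPKM over the 6 libraries, Atp2a2, the calcium pump of the endoplasmic reticulum, at 71.4, and Tmem150c, a membrane protein that slows the closing of Piezo currents, at 12.1. Their log2 fold changes were -0.10, -0.21 and -0.32. Atp2a2 and Tmem150c did not overlap between the groups, and their adjusted p were 0.306 and 0.278 in edgeR's quasi-likelihood test. Stoml3, which tunes Piezo sensitivity in touch afferents, was under the filter with 9 to 58 counts a library.

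Of 11 other mechanically gated channel genes, 9 were tested and 0 called. Tmem63b and Tmem63c, relatives of osmotically gated channels, and Tmem120a, whose channel function is debated, were the most abundant. They measured 47.5, 29.3 and 10.2 FPKM in the CCI group and 49.3, 26.3 and 9.80 in the sham group, with log2 fold changes of -0.07, 0.14 and 0.04. The stretch-opened potassium channel genes Kcnk2 and Kcnk4, named after their values were seen, had opposite signs. For Kcnk2 the counts were 1318, 1531 and 1452 in the CCI libraries and 1152, 1018 and 961 in the sham libraries. Its log2 fold change was 0.53 (SE 0.10), with an adjusted p of 0.150 in edgeR's quasi-likelihood test. For Kcnk4 they were 1115, 995 and 982 against 1661, 1365 and 1660, and the log2 fold change was -0.53 (SE 0.09), with an adjusted p of 0.122 in the same edgeR test. Neither overlapped between the groups, both missed the fold limit of 0.58, and DESeq2 gave adjusted p of 0.00228 and 0.000738. DESeq2 called 751 rows in all at an adjusted p under 0.05, against 25 with edgeR's quasi-likelihood test. The Kcnk4 row also carries the symbol Catsperz, so its reads cannot be assigned to Kcnk4 alone.

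Of 9 other proton sensors, 6 were tested and 0 called. Trpv1, the heat and capsaicin channel that protons also open, was at 15.0 FPKM over the 6 libraries. Its mean was 14.1 ± 0.352 FPKM in the CCI group and 15.9 ± 0.556 in the sham group (SD, n = 3), and the groups did not overlap. Its log2 fold change was -0.19 (SE 0.05), with an adjusted p of 0.281 in edgeR's quasi-likelihood test. Pacc1, a proton-activated chloride channel, was at 4.87 FPKM with a log2 fold change of 0.13. None of the 4 DEG/ENaC relatives passed the filter, and Asic5 had 0 counts in 5 libraries and 3 in the other.

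**Figure D4:**
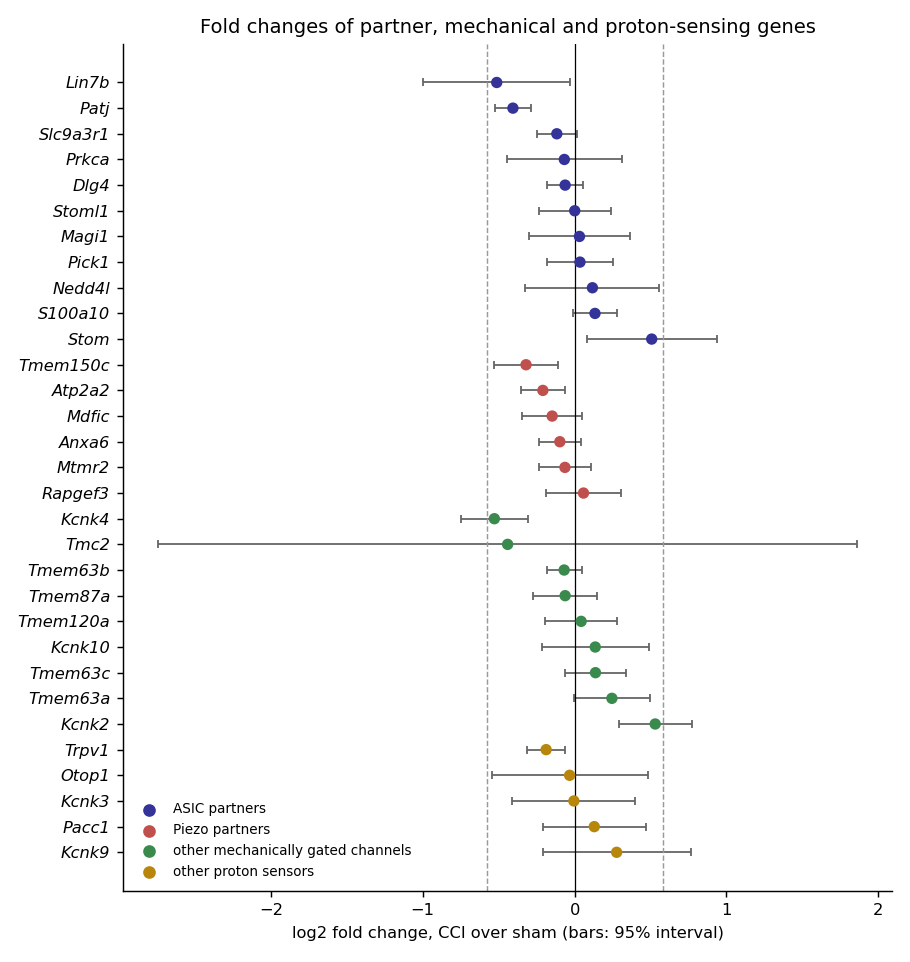
Log2 fold change, CCI over sham (x axis), of tested genes of the partner, mechanical and proton-sensing lists, with 95% intervals from edgeR's quasi-likelihood test, colours for the list and dashed lines at 0.58 on either side of 0. All points shown lie inside the dashed lines, with Kcnk2 and Kcnk4 near them on opposite sides, and Tmc2 has the widest interval, from -2.74 to 1.86.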

How the data were processed

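Total RNA of 6 samples was depleted of ribosomal RNA and sequenced in paired ends by the authors. Reads were mapped with HISAT2 and assembled with StringTie, listed as 2.0 and 1.3.0 in the submitters' processing notes. The methods give a later point release of the mapper and also name edgeR for expression levels. The deposited count values are whole reads per row, not normalized, and the deposited FPKM values, made by the authors, divide them by row length and column total. FPKM of rows with 0 counts is listed at a constant and was set to 0. Rows without a symbol held 5.37% to 5.72% of counts.

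Members were found by symbol. Counts were tested with edgeR 4.0.16 (quasi-likelihood, TMM factors from 0.988 to 1.01, trended prior) in R 4.3.3, on rows averaging 0.5 FPKM or more, with Benjamini-Hochberg adjustment over all 26663. Intervals are at 95%. Single values were compared with exact permutation tests (scipy 1.17.1). Limma 3.58.1, DESeq2 1.42.0, other scalings, filters and priors, a replicate block and leaving out each library were alternatives. The fits were tested on simulated counts. Whether counting used strand is not given in the sources used here.

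Named genes are the members, genes of the lists called in the main fit or an alternative, and the 3 most abundant of each list. The nearest patterns and genes said to be chosen after their values were seen are also named. Some others, such as Stoml3, Asic5, Tmc2 and single cell type markers, are named outside these rules. Members and lists were chosen with earlier results of these data known. In list matching, Cntnap2, Pecam1, Col1a2 and Hba1 had no row and were not analysed here. The values of 1 pathway gene are counted with its list but not reported here. Replicates are separate rats per the methods (the labels say pooled samples), and all pairs within a group differed by more than sampling noise.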

Additional observations from a re-analysis of the deposited data

How the results depend on the processing

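For the members, 0 were called at either limit under every alternative run. The log2 fold changes of Asic1, Asic2, Asic3 and Piezo2 kept their sign in all 18 alternatives each, with ranges from -0.33 to -0.18, -0.30 to -0.14, 0.02 to 0.09 and -0.22 to -0.09, whose ends came from leaving out single libraries. The unadjusted p of Asic1 was under 0.05 in 14 of its 18 alternatives and reached 0.0786 without sham 3 and 0.0834 with edgeR's exact test. Piezo1 reversed to -0.0016 with a replicate block and ranged from -0.13 to 0.11 with each library left out. The difference in summed Asic FPKM, -1.46, ranged from -3.36 to 0.466 over the libraries left out and turned positive without CCI 1. That in the log2 ratio of Piezo2 to Piezo1 ranged from -0.24 to -0.09, and that of Asic3 to Asic1 from 0.26 to 0.35.

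Over all rows, 686 were called higher and 336 lower. Limma on log2(FPKM + 1) gave 400 and 150, the 12988 protein-coding rows alone 328 and 113, and single libraries left out 561 to 767 and 312 to 421. At an adjusted p under 0.05, 25 rows were called, against 751 with DESeq2, 231 with edgeR's exact test, 13 with limma on log2(FPKM + 1), 71 with protein-coding rows alone, 14 with a prior without trend, 0 with the replicate block and 6 to 61 with a library left out, lowest without CCI 2 (6) and sham 1 (8) and highest without CCI 1 (61) and CCI 3 (38). The cause of these differences was not tested. Pathway genes called rose from 0 to 3 without a filter and lay between 0 and 2 with a library left out, namely Kcnk2 without CCI 1, Stom without CCI 2, Lin7b without CCI 3, Kcnk4 without sham 2, and Stom and Lin7b without sham 3.

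The replicate numbers are not stated to pair the rats. Deviations of same-numbered libraries correlated at -0.0547 to -0.0106 and those of other pairs at -0.0153 to 0.0365. This shows no pairing, but with 3 libraries a group it cannot establish that there was none. With the block, 617 rows were higher and 318 lower, and the log2 fold change of Asic1 was -0.26. Counting error was largest for Asic4, at 9.41% to 12.4% of a library's value, the member with the fewest reads.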

Other observations

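Of the 11 pathway genes left out by the filter on low FPKM, 3 were called when the fit was run without it, where 3.84% of 35757 rows were called. Gpr65, a proton-sensing receptor of immune cells, was at 71, 115 and 79 counts in CCI 1, 2 and 3 and at 26, 21 and 55 in sham 1, 2 and 3. Its log2 fold change was 1.44 (SE 0.45), with an adjusted p of 0.399 in edgeR's quasi-likelihood test. Every CCI library lay above every sham library. Trpv4, a channel opened by osmotic and mechanical stimuli, was at 106, 103 and 77 counts against 63, 47 and 67, and its log2 fold change was 0.76 (SE 0.27), with an adjusted p of 0.459 in the same edgeR test. Scnn1b, an epithelial sodium channel subunit related to the acid-sensing channels, was at 82, 109 and 125 counts against 88, 56 and 52, and its log2 fold change was 0.77 (SE 0.31), with an adjusted p of 0.541 in the same edgeR test. In raw counts CCI 1 lay below sham 1 for Scnn1b, and after scaling the groups were just apart. All 3 rest on few reads, and macrophage markers were also higher in the CCI group, as given above. The part of immune cells in the Gpr65 level was not tested.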
